A study of Mus musculus with 6 samples.

Results

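The 10 genes described here encode the growth hormone receptor, its kinase JAK2, the transcription factors STAT5A and STAT5B, and the inhibitors CISH, SOCS2, SOCS3, SOCS5, SOCS6 and SOCS7 of the SOCS family. They were taken by gene name from a table of 13962 genes; as a group they were selected on their pathway role with the counts of the ethanol and tamoxifen libraries in view. All 10 were listed, and all 10 were among the 13192 genes that passed the filter on low counts. The data are read counts per gene from poly(A) RNA of cultured mouse beige adipocytes, fat cells of white adipose tissue that can produce heat. The cells were grown from C57BL/6 inguinal preadipocytes immortalized with the large T antigen, and every library carries the same genotype, floxed Tle3 alleles with CreERT2, a Cre recombinase switched on by tamoxifen. The control group (n = 3) received ethanol and the other group (n = 3) received 500 nM 4-hydroxytamoxifen, both for 24 hours from day 4 of differentiation, with harvest on day 10. The differentiation medium of both groups held serum, insulin, T3 and rosiglitazone, with dexamethasone, isobutylmethylxanthine and indomethacin at the start; growth hormone is not among the additions that the labels list. The labels name neither the promoter that drives CreERT2, nor the number of animals or clones behind the line, nor separate cultures for the replicates, so each p-value reflects only how far these libraries scatter, and that scatter may be technical. There was no group of cells without Cre given tamoxifen, so effects of the compound, of Cre and of the deletion cannot be told apart.

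Growth hormone binds a receptor dimer that has no kinase of its own and activates JAK2, which is bound to the receptor. JAK2 phosphorylates the receptor and the STAT5 proteins, which then enter the nucleus and switch on genes, among them Cish, Socs2 and Igf1. CISH and the SOCS proteins share an SH2 domain, which binds phosphorylated tyrosines, and a SOCS box, which recruits a cullin 5 ubiquitin ligase, and several of them turn the same receptors off again. In fat, growth hormone is known to promote lipolysis and to oppose insulin, and STAT5 proteins become abundant as preadipocytes turn into adipocytes.

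STAT5 dimers bind the motif TTCNNNGAA, which reads the same on both strands. It was searched in RefSeq promoter windows (build GRCm38.p6, 250 bases before to 50 bases after each gene start), where 8.3% of 32851 windows held at least 1 match and 0.457% held at least 2. Counted by gene, 9.55% of 27025 genes with a window held a match. Of the 10 genes, 6 had a window in the table (Ghr, Jak2, Stat5a, Stat5b, Socs3 and Cish), and the motif was found for 2, Cish and Socs3 (2 of 9 windows). These stretches are shown because Cish is the gene of the group that rose and because its pair of adjoining matches sits at the gene start; capitals mark the matches. In Cish the matches begin at bases 1 and 12 counted from the gene start, on the plus strand at chr9:107296654-107296683. In Socs3 the match begins upstream, at position -154, on the minus strand at chr11:117969501-117969530. A match describes these letters alone and was not tested here for binding or for a link to expression. Socs2, Socs5, Socs6 and Socs7 had no window, so the motif could not be searched for in them.
Cish: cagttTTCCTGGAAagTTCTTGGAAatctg
Socs3: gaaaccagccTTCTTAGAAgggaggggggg

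Total counts ran from 14606228 to 19294632 per library, and the 10 genes had between 169 and 4816 counts in each. Levels are given as counts per 1000000 counts (CPM) on library sizes scaled by the TMM method. Tle3, the targeted gene, was higher in the libraries labelled knockout, at 286.9, 288.9 and 294.2 CPM, than in controls, at 151.4, 151.3 and 152.1 CPM. These are counts over all exons, floxed or not, so they check nothing about the label; the phrase libraries labelled knockout is kept for that reason, and every direction below rests on the label. Adipocyte markers were abundant in sum (10 of 10 listed, summed 9765 to 11600 CPM in controls and 10800 to 12390 CPM in the libraries labelled knockout), as were preadipocyte and fibroblast markers (9 of 10 listed, 8253 to 9472 and 8040 to 8448 CPM). Both sums rest mostly on a few genes. In control 1 Fabp4 and Lpl stood at 4969 and 3671 CPM and Retn at 33.5 CPM. Among the others Col1a1 and Col3a1 stood there at 4433 and 3323 CPM, Cd34 at 44.2 CPM and Ly6a at 12.0 CPM. Macrophage and endothelial markers were near 0: 4 of 10 and 4 of 8 were listed, summing to at most 8.16 and 4.30 CPM in any library. Of the 10 adipocyte markers Retn and Lipe rose and 8 did not pass. Of 9 tested preadipocyte markers Dcn (log2 fold change −1.01), Thy1 (−0.42) and Pdgfra (−0.38) fell and Dlk1 rose (0.72). By the same threshold 6.91% of all tested genes rose and 5.44% fell. The call for Lipe was lost without control 1, control 3, or library 2 or 3 labelled knockout, and that for Pdgfra without either of those last libraries. The part of these shifts in the results below was not tested. In bulk RNA, fewer cells of a type and less RNA per cell cannot be told apart.

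Of the 10 genes, Socs2, Stat5a, Stat5b and Jak2 fell and Cish rose in the libraries labelled knockout, while Ghr, Socs3, Socs5, Socs6 and Socs7 did not pass the threshold. A gene is said to rise or fall where its p from edgeR's quasi-likelihood test, adjusted over all 13192 genes by the Benjamini-Hochberg method, is under 0.05. By that rule 12.3% of all tested genes changed, 6.91% rising and 5.44% falling. Since the 10 genes were chosen with results of this same contrast known, their calls are a description and nothing is read from their number. The median log2 fold change (libraries labelled knockout minus controls) of the 10 was −0.16, against 0 over all tested genes. In 5 of the 10 every library labelled knockout lay below every control, and in 2 every one lay above; among all tested genes these orders held for 15.8% and 16%, or 31.8% together.

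**Figure D1:**
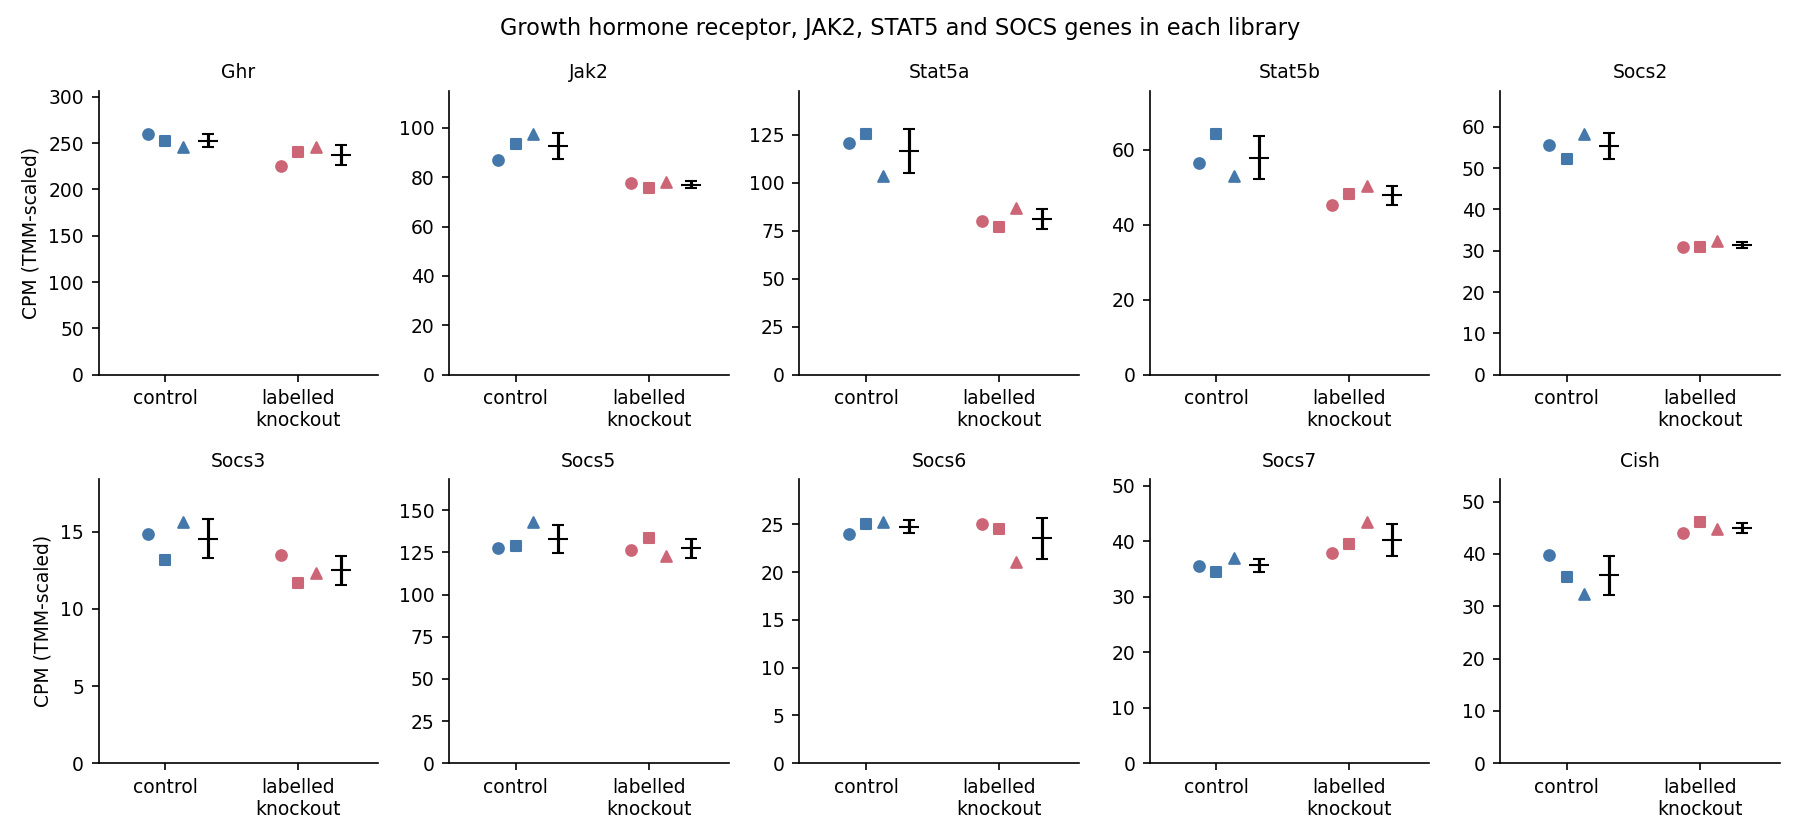
CPM of each of the 10 genes (vertical axes from 0) in the 3 controls (blue) and the 3 libraries labelled knockout (red). Circles, squares and triangles are replicates 1, 2 and 3 of each group, not treated as paired, and the bars give mean and SD. Socs2 and Stat5a stand clearly lower in the libraries labelled knockout, Cish higher, and Ghr, Socs5 and Socs6 nearly level.

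The receptor gene differed little between the groups. Ghr (ENSMUSG00000055737) stood at 260, 251.9 and 245.8 CPM in controls 1 to 3 and at 225.5, 240.7 and 245.6 CPM in libraries 1 to 3 labelled knockout. The groups all but met: 0.211 CPM lay between the lowest control and the highest library labelled knockout. Controls averaged 252.6 ± 7.12 CPM and the libraries labelled knockout 237.3 ± 10.5 CPM (SD, n = 3 in each), with an estimated log2 fold change of −0.09 (SE 0.045, 95% interval −0.19 to 0.01).

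Jak2 (ENSMUSG00000024789), the kinase that acts for this receptor and for several other cytokine receptors, stood at 87.1, 93.4 and 97.6 CPM in controls and at 77.5, 75.5 and 78.0 CPM in the libraries labelled knockout. All 3 of the latter lay below all controls, by a gap of 9.11 CPM, and they spanned 2.52 CPM. The mean was 92.7 ± 5.27 CPM in controls and 77.0 ± 1.33 CPM in the others, 1.2-fold lower (log2 fold change −0.27, SE 0.051, 95% interval −0.38 to −0.16). The fall passed the threshold under all 12 alternative settings, with log2 fold changes from −0.31 to −0.23.

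Both STAT5 genes were lower in the libraries labelled knockout, with the larger estimate for Stat5a. These estimates were not tested against each other, and their 95% intervals overlap. Stat5a (ENSMUSG00000004043) stood at 120.4, 125.4 and 103.5 CPM in controls and at 80.1, 76.7 and 86.9 CPM in the libraries labelled knockout. The groups were separated by 16.6 CPM, and control 3 was the lowest control. The mean was 116.4 ± 11.5 CPM in controls and 81.2 ± 5.18 CPM in the others, 1.43-fold lower (log2 fold change −0.52, SE 0.072, 95% interval −0.68 to −0.36). Of all tested genes, 199 fell by more.

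Stat5b (ENSMUSG00000020919), the close paralog of Stat5a, stood at 56.5, 64.3 and 53.0 CPM in controls and at 45.3, 48.3 and 50.3 CPM in the libraries labelled knockout. The groups did not overlap, and the gap between them was 2.75 CPM. The log2 fold change was −0.27 (SE 0.071, 95% interval −0.43 to −0.11). The call did not hold when 1 library was left out, for any of the 6 libraries other than control 3; the log2 fold change then lay between −0.31 and −0.19.

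The balance between the paralogs was compared within each library, which needs no scaling of library sizes. There were 2.13, 1.95 and 1.95 Stat5a counts per Stat5b count in controls and 1.77, 1.59 and 1.73 in the libraries labelled knockout, with means of 2.01 ± 0.105 and 1.70 ± 0.0947 (SD, n = 3 per group). The ratio was lower in every library labelled knockout than in every control. Reads from the identical stretches could have been split between these genes: of all different 50-base stretches in the GENCODE M21 transcripts of Stat5a, 8.21% also occur in those of Stat5b, and of those in Stat5b 11.0% occur in Stat5a. In the same annotation Stat5a overlaps Stat3 on the other strand, and whether the counting used strand is not given in the sources used here.

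The feedback inhibitors Socs2 and Cish, both textbook STAT5 targets, moved in opposite directions. Socs2 (ENSMUSG00000020027), whose protein binds the activated growth hormone receptor and promotes its degradation, stood at 55.5, 52.1 and 58.3 CPM in controls and at 30.9, 31.0 and 32.3 CPM in the libraries labelled knockout. A gap of 19.8 CPM separated the groups, and the libraries labelled knockout spanned 1.48 CPM. The mean was 55.3 ± 3.09 CPM in controls and 31.4 ± 0.824 CPM in the others, 1.76-fold lower (log2 fold change −0.82, SE 0.056, 95% interval −0.94 to −0.70). On the log2 scale this was the widest difference of the 10 genes, while in CPM the means of Stat5a lay further apart; of all tested genes 102 fell by more on the log2 scale, and the median absolute log2 fold change of all changed genes was 0.30. It passed under all 12 alternative settings, with log2 fold changes from −0.86 to −0.78.

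Cish (ENSMUSG00000032578), which encodes the founding member of the SOCS family and carries the paired motif printed above, stood at 39.8, 35.5 and 32.4 CPM in controls. In the libraries labelled knockout it stood at 44.1, 46.0 and 44.7 CPM, all above every control. The log2 fold change was 0.33 (SE 0.071, 95% interval 0.17 to 0.48), or 1.25-fold. The call was lost without library 2 labelled knockout (log2 0.31) or without library 3 (0.33). The controls were spread more widely, with a coefficient of variation of 10.3% against 2.22%, and control 3 was lowest. In the annotation an antisense gene model, Gm17041, overlaps Cish; neither it nor the pseudogene there is a row of the count table.

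Set against each other within a library, there were 1.40, 1.47 and 1.80 Socs2 counts per Cish count in controls and 0.700, 0.673 and 0.723 in the libraries labelled knockout. The means were 1.55 ± 0.217 and 0.699 ± 0.0252 (SD, n = 3 per group). Socs2 had more counts than Cish in every control and fewer in every library labelled knockout. These counts are not corrected for transcript length, so the crossing does not compare the levels of the genes. Both genes were chosen with results of this contrast known and moved in opposite directions. The separation of their ratio follows from that and was not tested. Set against the receptor, there were 0.213, 0.207 and 0.237 Socs2 counts per Ghr count in controls and 0.137, 0.129 and 0.132 in the libraries labelled knockout.

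**Figure D2:**
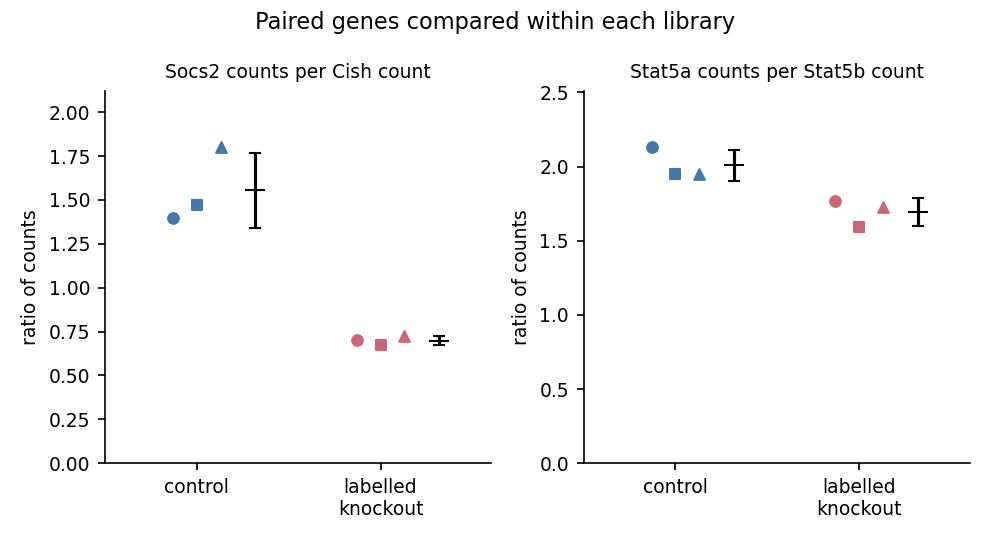
Ratio of counts within each library (vertical axes from 0) for Socs2 over Cish on the left and Stat5a over Stat5b on the right, in controls (blue) and libraries labelled knockout (red); symbols are replicates 1 to 3 as circle, square and triangle, and bars are mean and SD. The Socs2 to Cish ratio lies at 1.40 or above in all controls and at 0.723 or below in the libraries labelled knockout. The Stat5a to Stat5b ratio also separates the groups. The genes were chosen with results of this contrast known, and neither ratio was tested.

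The other SOCS genes did not pass the threshold. Socs3 (ENSMUSG00000053113), an inhibitor best known for acting on gp130 and leptin receptors, had the fewest counts of the group, 169 to 306 per library. It stood at 14.9, 13.2 and 15.6 CPM in controls and at 13.5, 11.7 and 12.3 CPM in the libraries labelled knockout, where 1 library lay above control 2. Its log2 fold change was −0.22, with a 95% interval from −0.43 to −0.01.

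Socs7 (ENSMUSG00000038485) stood at 35.5, 34.5 and 36.9 CPM in controls and at 37.9, 39.4 and 43.4 CPM in the libraries labelled knockout. The groups did not overlap, with a log2 fold change of 0.17 (95% interval 0.04 to 0.31). Socs5 (ENSMUSG00000037104), reported to restrain epidermal growth factor and interleukin-4 receptors, stood at 127.7, 128.6 and 142.8 CPM in controls and at 126.2, 133.6 and 122.7 CPM in the libraries labelled knockout. Its groups overlapped (log2 fold change −0.06, 95% interval −0.18 to 0.06). Socs6 (ENSMUSG00000056153) stood at 24.0, 25.0 and 25.2 CPM in controls and at 25.0, 24.5 and 21.1 CPM in the libraries labelled knockout, also with overlap (log2 fold change −0.07, 95% interval −0.24 to 0.10). Without library 3 labelled knockout the Socs6 value was 0.0023.

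**Figure D3:**
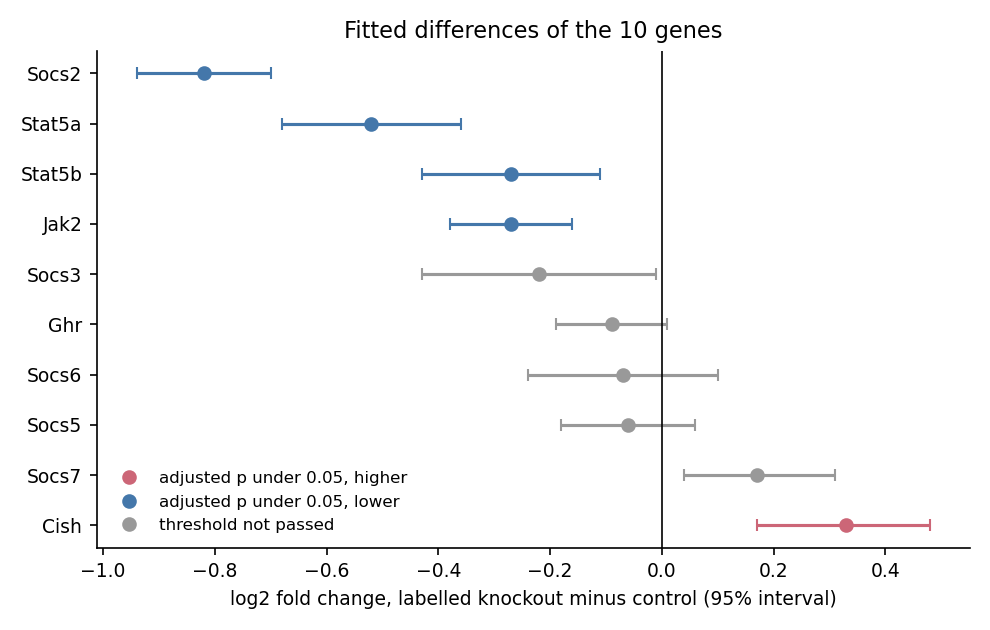
Log2 fold change of each of the 10 genes, libraries labelled knockout minus controls, with 95% intervals from the edgeR fit (horizontal axis), ordered by value; blue and red points passed the adjusted p threshold as lower and higher, grey points did not. Values run from −0.82 for Socs2 to 0.33 for Cish, and the intervals of Ghr, Socs5 and Socs6 cross 0.

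Levels can be compared between genes only per transcript length, for which the authors' deposited FPKM values serve, rounded by them to whole numbers. In controls Socs5 (29 to 33 FPKM over 3 libraries) and Ghr (28 to 29) were the most abundant of the group, followed by Jak2 (17 to 20), Stat5a (15 to 17) and Stat5b (10 to 12). Cish and Socs2 (each 5 to 6), Socs3 and Socs7 (each at 5) could not be ordered, and Socs6 was lowest at 3. Socs5 and Ghr met at 29, and Jak2 and Stat5a met at 17. In the libraries labelled knockout Jak2 (15) and Stat5a (11 to 12) no longer met. Cish was at 7 FPKM and Socs2 at 3 in all 3 of these libraries, so the pair that shared a level in controls did not share it there.

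The genes whose pattern lay closest to that of Ghr were Prps2, Cdk5rap3, 2610020H08Rik, Atg12 and Fancc. They were the 5 nearest of 10569 genes averaging 5 CPM or more, by Euclidean distance between mean-centred log2 CPM over the 6 libraries, with distances from 0.0391 to 0.0465. Their log2 fold changes ran from −0.11 to −0.07. The 5 genes were picked by closeness over these same 6 libraries, so their fold changes follow from the choice. This is a description of 6 points.

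Beyond the 10, the wider pathway was read from 82 gene names in 6 lists by role, of which 71 were tested. Of these, 5 rose and 8 fell, 13 in all, against 12.3% of all tested genes; the median log2 fold change was −0.07, against 0. Over all tested genes 911 rose and 718 fell. Without library 3 labelled knockout 1 of the pathway genes rose and 8 fell (332 and 289 over all genes). Without library 2 of that group 3 rose and 8 fell (564 and 398). With DESeq2 3 rose and 9 fell (749 and 543), and with the replicate number as a block 8 rose and 8 fell (1032 and 777).

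**Figure D4:**
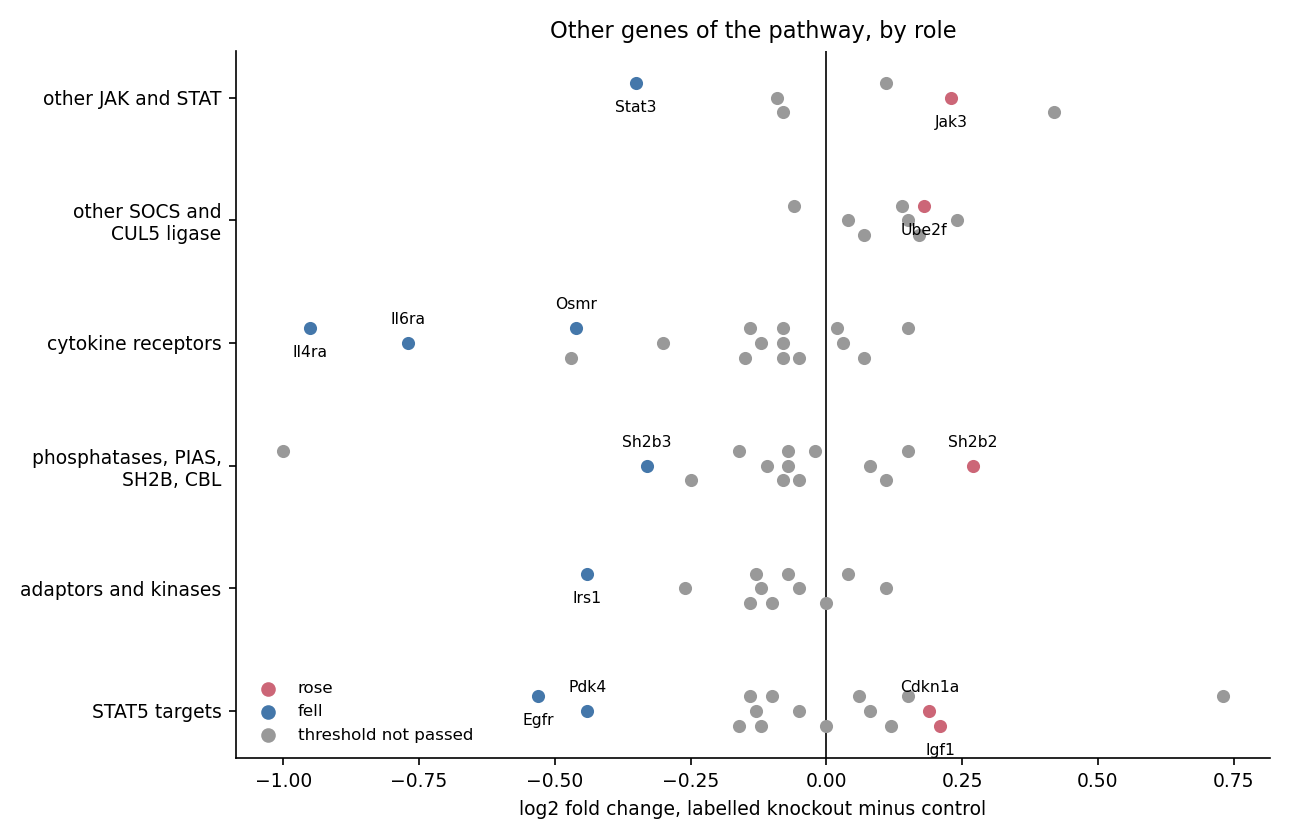
Log2 fold change, libraries labelled knockout minus controls (horizontal axis), of the 71 tested genes of the 6 pathway lists (rows; vertical offsets within a row only separate points); red points rose, blue points fell and grey points did not pass the threshold. The 3 cytokine receptor genes that fell, Il4ra, Il6ra and Osmr, lie to the left of all other receptors apart from Csf2rb, which was at a mean of 0.807 CPM in controls.

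Among 6 other tested JAK and STAT genes, Stat3 fell and Jak3 rose (median log2 fold change 0.01), where 12.3% of all tested genes changed. Stat3, the main STAT of the interleukin-6 family, stood at 165.6, 175.0 and 191.7 CPM in controls and at 146.4, 132.3 and 138.8 CPM in the libraries labelled knockout, without overlap. Its log2 fold change was −0.35 (SE 0.059, edgeR adjusted p 0.00418), and it passed under all 12 alternatives. Jak3, known mainly from lymphoid cells, rose from 30.2 ± 1.13 to 35.5 ± 1.02 CPM (edgeR adjusted p 0.0223, and 0.0219 to 0.0834 over the alternatives). DESeq2 did not call it (adjusted p 0.0700), nor did edgeR without control 3 (0.0674), library 2 labelled knockout (0.0834) or library 3 (0.0764). Jak1 was at 419.9 ± 12.6 and 452.6 ± 12.7 CPM and Tyk2 at 20.8 ± 0.695 and 19.5 ± 1.39 CPM, neither past the threshold.

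In the list of the other SOCS genes (Socs1 and Socs4) and of cullin 5 ligase genes, 1 of 8 passed, where 12.3% of all tested genes changed. It was Ube2f, the neddylation enzyme of cullin 5, which rose from 51.7 ± 1.72 to 58.5 ± 1.37 CPM (log2 fold change 0.18, edgeR adjusted p 0.0302). DESeq2 did not call it (adjusted p 0.109), nor did edgeR without control 1, control 3 or library 2 or 3 labelled knockout (adjusted p 0.0800 to 0.134). Without control 2 or library 1 labelled knockout, and with the replicate number as a block, 2 of the 8 rose (1025, 806 and 1032 over all genes). The list median was 0.15, and 7 of 8 values were above 0. Socs1 averaged 1.43 CPM among controls and 1.69 CPM among the others, and neither it nor Socs4 passed.

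Of 16 tested cytokine receptor genes 3 fell and 0 rose by edgeR, with a median of −0.10, where 5.44% of all tested genes fell and 6.91% rose. With so few genes the 0 is close to that share and says nothing about the list (DESeq2 and limma-voom also gave 0, and 0 higher genes had an unadjusted edgeR p under 0.05). Il4ra, a receptor chain for interleukins 4 and 13, stood at 15.0, 18.8 and 17.0 CPM in controls and at 9.23, 9.13 and 7.90 CPM in the libraries labelled knockout, 1.93-fold lower (log2 −0.95, SE 0.108, edgeR adjusted p 0.000506). Il6ra, the ligand-binding chain of the interleukin-6 receptor, stood at 18.7, 20.3 and 20.5 CPM against 11.4, 10.9 and 12.7 CPM (log2 −0.77, SE 0.084, edgeR adjusted p 0.000412). Osmr, the oncostatin M receptor chain, went from 147.9 ± 19.6 to 107.6 ± 7.94 CPM (log2 −0.46, edgeR adjusted p 0.00702). In all 3 genes the groups did not overlap, and all 3 passed under all 12 alternatives. Il6st, the gp130 chain that pairs with both of the latter, did not pass (log2 −0.14), and neither did Prlr, the prolactin receptor gene and the closest relative of Ghr on the list (31.99 ± 3.05 and 35.42 ± 1.92 CPM).

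Among 14 tested phosphatase, PIAS, SH2B and CBL genes 2 passed, where 12.3% of all tested genes changed. Both were adaptors of the SH2B family, and they moved apart. Sh2b2 rose from 51.3 ± 0.807 to 61.9 ± 1.80 CPM (log2 0.27, edgeR adjusted p 0.00402), and Sh2b3, whose protein LNK restrains JAK2, fell from 57.1 ± 2.36 to 45.4 ± 3.48 CPM (log2 −0.33, edgeR adjusted p 0.00639). Both passed under all 12 alternatives. The list median was −0.07. Ptpn1, the phosphatase PTP1B, did not pass (log2 −0.16), except with total counts alone as scaling and without control 2. There 2 of the list fell (825 and 870 over all genes).

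Among 11 adaptors and kinases that the growth hormone receptor shares with other receptors, Irs1 fell and 10 did not pass (median −0.10). Of all tested genes 12.3% changed. Irs1, an insulin receptor substrate that JAK2 can also phosphorylate, stood at 202.5, 205.0 and 183.4 CPM in controls and at 138.4, 148.2 and 149.7 CPM in the libraries labelled knockout. Its log2 fold change was −0.44 (SE 0.053, edgeR adjusted p 0.000689).

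Of 16 tested genes known as growth hormone or STAT5 targets, Igf1 and Cdkn1a rose, Egfr and Pdk4 fell and 12 did not pass, where 12.3% of all tested genes changed. The median was −0.02, with 8 values on each side of 0. Over all tested genes 6514 values were above 0 and 6678 below. The list does not sort targets by whether STAT5 raises or lowers them. Its median and split therefore do not show whether target output as a whole moved. Igf1, the insulin-like growth factor gene that growth hormone induces, rose from 90.3 ± 2.77 to 104.1 ± 0.633 CPM (log2 0.21, edgeR adjusted p 0.0107); without library 3 labelled knockout its adjusted p was 0.0553, the highest of the 12 alternatives (lowest 0.0101). Cdkn1a, the p21 cell cycle inhibitor gene, rose from 134.2 ± 5.50 to 152.6 ± 0.250 CPM (edgeR adjusted p 0.0175, and 0.0174 to 0.0778 over the alternatives), and its call was lost without library 2 (0.0581) or 3 (0.0778) labelled knockout. Pdk4, which encodes a kinase that shuts off pyruvate dehydrogenase, fell from 448.7 ± 58.4 to 330.3 ± 5.42 CPM (log2 −0.44, edgeR adjusted p 0.00548). Egfr, the epidermal growth factor receptor gene, stood at 75.7, 78.3 and 92.4 CPM in controls and at 58.05, 55.1 and 58.06 CPM in the libraries labelled knockout, and fell (log2 −0.53, edgeR adjusted p 0.00142).

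Stat5b, Stat5a and Stat3 lie next to each other on mouse chromosome 11 in GENCODE M21, with Stat5b and Stat3 on the minus strand and Stat5a on the plus strand. The 8 nearest tested genes on each side, chosen after the values of the STAT genes were seen, were therefore listed beside them. Of these 16 neighbours 3 rose and 2 fell, against 12.3% of all tested genes that changed, and their median log2 fold change was 0.01. The genes directly flanking the 3 did not pass: Ghdc was at 11.8 and 11.9 CPM and Ptrf, the cavin-1 gene, at 412.6 and 401.9 CPM (group means). Rab5c (log2 0.26), Dnajc7 (0.17) and the interferon-induced gene Dhx58 (0.86) rose on one side, and Fam134c (−0.18) and Tubg1 (−0.17) fell at the far end of the other. Of these 5, Rab5c passed under all 12 alternatives, and the calls of the other 4 were each lost under 4 to 6 of them. The difference between the STAT genes and their neighbours was not tested.

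**Figure D5:**
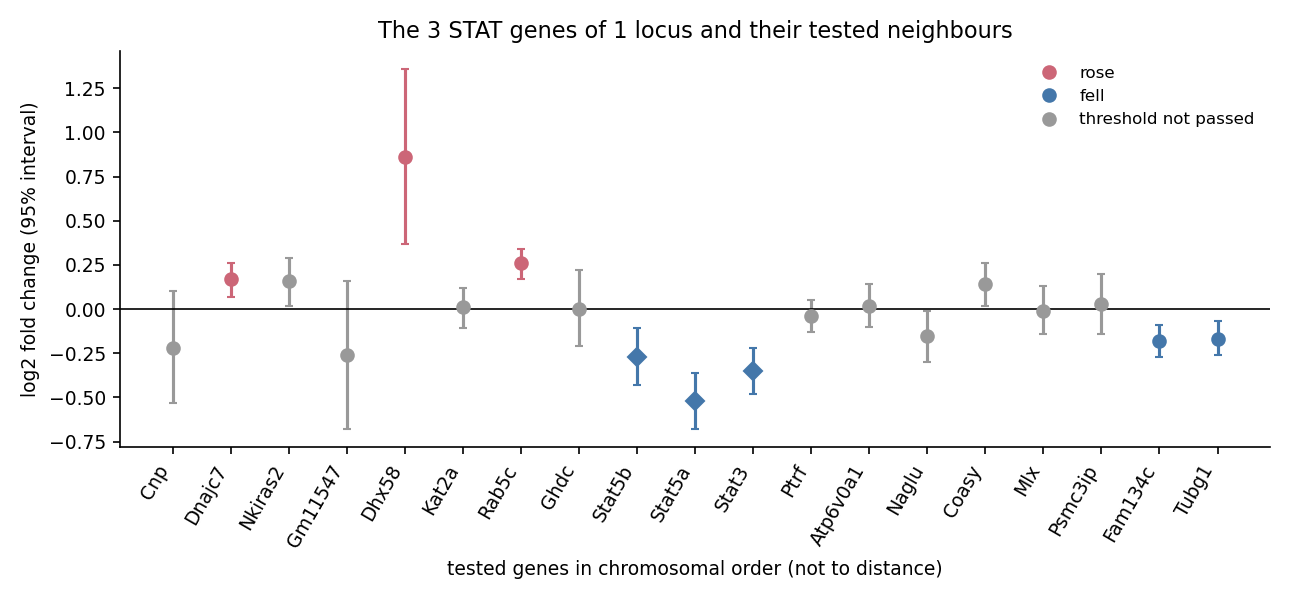
Log2 fold change with 95% intervals, libraries labelled knockout minus controls (vertical axis), for Stat5b, Stat5a and Stat3 (diamonds) and the 8 nearest tested genes on each side (circles), in chromosomal order without regard to distance; red rose, blue fell and grey did not pass the threshold. The 3 STAT genes lie between −0.52 and −0.27, and the genes next to them lie near 0.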

How the data were processed

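The authors deposited whole-number read counts per Ensembl gene, per the file headers, and FPKM values rounded to whole numbers, which the authors deposited beside them and which were treated as a score. The submitters' processing notes name Novoalign 2.8, Picard, DESeq2 and build mm9; counter, annotation and strand setting were not given in the sources used here, and the library kit was stranded per the labels' protocols. All 13962 rows had at least 10 counts in 1 library. Libraries of 1 group differed beyond sampling noise (chi-square per degree of freedom 2.88 to 7.53).

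The counts were tested in R 4.3.3 with edgeR 4.0.16: expression filter (13192 genes kept), TMM scaling, and the quasi-likelihood test with group alone. The common biological coefficient of variation, 1 value that edgeR estimates for all genes together, was 5.25%. Intervals of log2 fold changes are 95%, with the SE taken as the fold change over the square root of F. The fit was tested on simulated counts. A name held by several rows used the row with the most counts. The 10 genes and the lists were chosen with earlier results of these data known. 1 gene of the lists is not reported here and was taken out of their counts. Named genes were the 10, all changed genes of each list with 5 or fewer, otherwise the 4 with the smallest adjusted p, the 5 nearest to Ghr, and some family members that did not pass; locus neighbours and the marker genes named were chosen after their values were seen. Alternatives were other scalings, no filter, DESeq2 1.42.0, limma-voom (limma 3.58.1), a replicate block and leaving out each library. The coordinates printed are those of RefSeq GRCm38.p6 windows. Gene overlaps and the order of the STAT neighbours were taken from gene positions in GENCODE M21. Precision rests on 3 libraries per group.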

Additional observations from a re-analysis of the deposited data

How the results depend on the processing

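Jak2, Stat5a and Socs2 kept their calls under all 12 alternatives and Stat5b and Cish under 7 and 10. With library scaling, filter or test changed, 5 of the 10 genes changed each time; leaving out 1 library gave 3 to 5 changed and 0 to 1 that rose. Without 1 library the log2 fold change of Socs6 ran from −0.12 to 0.0023, and it was above 0 without library 3 labelled knockout, a fit with fewer libraries. Over all genes, leaving out 1 library gave 621 to 1895 changed, 332 to 1025 that rose and 289 to 870 that fell. Of the wider pathway genes, leaving out 1 library gave 9 to 15 changed and 1 to 6 that rose. DESeq2 gave 3 that rose (749 over all genes) and the replicate block 8 (1032 over all genes), and the cause was not tested. Whether the replicate numbers mark libraries that belong together is not given. The correlation of same-numbered deviations over all genes was −0.04, 0.18 and 0.03, and not every library correlated best with its own number. With 3 libraries per group these values cannot decide it. With the number as a replicate block 1809 genes changed, against 1629 without it, among them 5 of the 10 and 16 of the wider genes. Stat2 then passed (edgeR adjusted p 0.000984, and 0.622 at most over its alternatives), with an SE of 0.059 against 0.194 without the block.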

Other observations

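Stat2, a STAT gene of the interferon response, was uneven between libraries of 1 group. It stood at 75.8, 66.3 and 101.0 CPM in controls and at 105.3, 77.2 and 144.0 CPM in the libraries labelled knockout. In each group library 3 was the highest and library 2 the lowest. Stat2 did not pass the threshold (log2 fold change 0.42, SE 0.194), and it did without library 2 labelled knockout (log2 0.61).

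Within the interleukin-6 receptor, the ligand-binding chain and the shared chain did not keep their balance. There were 0.0552, 0.0592 and 0.0537 Il6ra counts per Il6st count in controls and 0.0338, 0.0350 and 0.0404 in the libraries labelled knockout, without overlap between the groups. This ratio was chosen after the values were seen and was not tested.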
